A study of Mus musculus with 10 samples.

Results

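Immunoglobulin heavy-chain variable segments (Ighv) were examined in the colon of wild-type (WT) and ERdj5-KO mice. The members were the rows of the deposited gene count table whose symbol begins with Ighv followed by a number. The rule found 129 of the 29320 rows, of which 109 were annotated in the table as V segments and 20 as V segment pseudogenes. No measured value entered this rule, though the rule was chosen with earlier results of these data known. The 286 immunoglobulin rows of the table also held 117 kappa variable segments (Igkv), 3 lambda variable segments (Iglv) and 15 heavy-chain D and J segments.

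A heavy chain is assembled in developing B cells by V(D)J recombination, which joins a single V segment to a D and a J segment, and each B cell clone then carries that V segment in all of its heavy-chain transcripts. In the colon most heavy-chain mRNA comes from plasma cells of the lamina propria, which secrete dimeric IgA that the epithelium carries into the lumen. The share of reads on each V segment depends on how many clones used it and on how much transcript each clone made.

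Whole-colon mRNA was sequenced from female mice aged 8 weeks on Day 5 of the experiment. The table held 10 libraries in 4 groups: untreated WT (n = 2), DSS-treated WT (n = 3), untreated ERdj5-KO (n = 2) and DSS-treated ERdj5-KO (n = 3). DSS (dextran sulfate sodium), an agent that damages the colon epithelium and causes colitis, was given at 2% in the drinking water for 5 days. ERdj5, encoded by Dnajc10, is a reductase of the endoplasmic reticulum lumen, and both KO groups came from the line in which its gene was disrupted. The WT mice were C57BL/6 animals from a commercial supplier, whereas the KO line came from a repository, and its strain background was not given in the sources used here. Libraries are named by the number in their column of the table, because those numbers did not match the sample titles. The sample titles number separate colons within each group, and each column could be tied to a group but not to a given colon, so p-values measure the spread between these libraries.

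Counted reads ranged from 49689389 to 72197887 per library. Dnajc10 lay between 113 and 140 CPM (counts scaled to a common library size by the trimmed mean of M values, TMM) in WT and between 18.4 and 30.4 in KO without overlap, the direction the genotype labels state. Summed smooth muscle markers (8 of 8 tested) spanned 2621 to 4758 CPM over the WT libraries, 8929 to 10591 CPM over the KO libraries without DSS and 583 to 963 CPM over those with it. Summed T cell markers (10 of 10 tested) spanned 52.3 to 194 CPM in WT and 10.6 to 37.3 in KO. These marker levels moved with the groups, and their part in the Ighv results was not tested.

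All 129 segments lay on the minus strand of chromosome 12 between positions 113572927 and 116010093 of GRCm38, a span of 2.44 Mb. A V segment typically has a short leader exon and a V exon, and the V exons of the members were 291 to 351 bases long in the GENCODE M21 models. The V exons of many segments are close copies of each other. At 95% identity or more over at least 90% of the shorter exon, 66 members had a near-identical member, and these formed 21 clusters of up to 7 segments. How reads that fit several copies were assigned was not given in the sources used here, so counts within a cluster are uncertain as to which copy they came from.

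The sequences of 4 pairs are shown because the results turn on the first member of each and their copies limit how far its reads can be assigned. They are the first 300 bases of the V exon on the coding strand (GENCODE M21, GRCm38, chromosome 12), and capitals mark the bases that differ between the segments of a pair. Ighv8-8 (chr12:115294074-115294373) was the segment with the most reads, and Ighv8-5 (chr12:115067572-115067871) differs from it at 11 of these 300 bases.
Ighv8-8: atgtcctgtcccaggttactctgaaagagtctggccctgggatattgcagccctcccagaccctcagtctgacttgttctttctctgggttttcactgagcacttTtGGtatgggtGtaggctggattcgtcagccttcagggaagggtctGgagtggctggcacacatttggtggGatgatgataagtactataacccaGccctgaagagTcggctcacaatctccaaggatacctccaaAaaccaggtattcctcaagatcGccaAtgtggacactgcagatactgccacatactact
Ighv8-5: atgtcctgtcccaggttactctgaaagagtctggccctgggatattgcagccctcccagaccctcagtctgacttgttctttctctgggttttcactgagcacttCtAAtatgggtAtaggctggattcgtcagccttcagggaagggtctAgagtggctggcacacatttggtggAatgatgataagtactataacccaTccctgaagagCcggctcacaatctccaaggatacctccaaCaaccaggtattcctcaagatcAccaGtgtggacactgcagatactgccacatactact
Ighv2-9 (chr12:113879100-113879399) took the largest share in a pair of DSS-treated KO libraries and differs from Ighv2-6-8 (chr12:113796142-113796441) at 9 bases.
Ighv2-9: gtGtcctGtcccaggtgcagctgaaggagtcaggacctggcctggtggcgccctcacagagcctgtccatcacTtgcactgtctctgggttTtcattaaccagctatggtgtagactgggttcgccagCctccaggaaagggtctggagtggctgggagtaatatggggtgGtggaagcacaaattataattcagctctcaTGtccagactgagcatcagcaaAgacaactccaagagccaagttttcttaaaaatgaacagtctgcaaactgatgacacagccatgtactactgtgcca
Ighv2-6-8: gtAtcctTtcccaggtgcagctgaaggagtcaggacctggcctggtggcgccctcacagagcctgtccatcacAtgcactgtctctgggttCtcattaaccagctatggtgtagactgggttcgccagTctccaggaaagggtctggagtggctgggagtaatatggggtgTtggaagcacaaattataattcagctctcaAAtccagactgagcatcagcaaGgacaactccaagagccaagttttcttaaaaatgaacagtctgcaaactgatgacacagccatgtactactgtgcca
Ighv9-2 (chr12:114109006-114109305) showed the largest fall of a frequently used segment, and it differs from Ighv9-1 (chr12:114093933-114094232) at 13 bases.
Ighv9-2: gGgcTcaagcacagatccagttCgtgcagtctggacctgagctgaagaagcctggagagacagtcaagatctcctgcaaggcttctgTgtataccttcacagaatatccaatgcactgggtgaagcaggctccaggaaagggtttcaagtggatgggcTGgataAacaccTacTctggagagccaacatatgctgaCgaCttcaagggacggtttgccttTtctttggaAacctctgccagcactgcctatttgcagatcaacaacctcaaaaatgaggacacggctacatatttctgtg
Ighv9-1: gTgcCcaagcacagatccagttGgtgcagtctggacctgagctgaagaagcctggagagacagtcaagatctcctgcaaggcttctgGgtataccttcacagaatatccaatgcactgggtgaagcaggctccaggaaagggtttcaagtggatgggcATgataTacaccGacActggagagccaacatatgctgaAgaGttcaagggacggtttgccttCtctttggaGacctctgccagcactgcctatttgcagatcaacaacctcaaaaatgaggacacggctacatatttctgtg
Ighv1-62-2 (chr12:115446561-115446710) and Ighv1-71 (chr12:115742357-115742506) are the 1 pair of members with identical V exons, over all 302 bases, of which the first 150 are shown.
Ighv1-62-2: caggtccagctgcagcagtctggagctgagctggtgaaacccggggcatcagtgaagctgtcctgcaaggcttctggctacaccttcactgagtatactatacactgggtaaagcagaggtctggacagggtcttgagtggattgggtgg
Ighv1-71: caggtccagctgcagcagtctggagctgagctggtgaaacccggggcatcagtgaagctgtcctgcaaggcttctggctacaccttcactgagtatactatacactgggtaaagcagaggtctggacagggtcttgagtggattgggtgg

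The reads divided among these copies in different ways. Over the 10 libraries Ighv8-8 had 19127 reads, Ighv8-5 had 245 and Ighv8-11, equally close to Ighv8-8, had 11. Ighv8-5 thus had 0.813 to 5.0 reads per 100 on Ighv8-8 in each library. Ighv2-9 had 2303 reads against 57 on Ighv2-6-8, and Ighv9-2 had 4333 against 160 on Ighv9-1. The identical segments Ighv1-62-2 and Ighv1-71 had 447 and 468 reads and stayed close in every library, for example 163 and 175 in untreated KO library 3 and 5 and 6 in DSS-treated KO library 1. Reads from these copies cannot be told apart by their V exon.

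Most segments were detected, but few carried many reads. A read was present in every library for 63 of the 129 members, 33 members had under 10 reads in each library, 12 had no read in any KO library and 5 had none in any WT library. At least 10 reads were found in every WT library for 63 members and in every KO library for 23. These counts depend on depth. Untreated KO library 2 and DSS-treated KO library 4 had 1553 and 1565 Ighv reads, whereas the lowest WT total was 7939. The counts have no share over all genes beside them and are not read as a difference between the genotypes. The 20 annotated pseudogenes took between 0.479% and 3.48% of the Ighv reads of a library. The filter on low counts kept 89 members for testing, and the other 40 held 0.597% of all Ighv reads.

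The summed level of the 129 segments was lower in KO than in WT colon within each treatment. Ighv segments together held 445 and 187 CPM in untreated WT libraries 2 and 3, and 126, 191 and 166 CPM in DSS-treated WT libraries 2, 3 and 4. The KO libraries had 30.7 and 150 CPM when untreated (libraries 2 and 3) and 72.5, 117 and 32.9 CPM after DSS (libraries 1, 2 and 4). Within each treatment all KO libraries lay below all WT libraries, whereas untreated KO library 3 lay above DSS-treated WT library 2. The log2 ratio of the group means, KO to WT, was -1.11 under DSS and -1.80 without it. These are descriptions of a sum, without a test. The spread within the untreated groups was large: untreated KO library 3 had 10508 Ighv reads and library 2 had 1553, and without library 3 the untreated ratio became -3.37. Without untreated WT library 2 it became -1.05, and without untreated KO library 2 it became -1.07. From this sum in whole tissue, fewer plasma or B cells, less heavy-chain mRNA per cell and a difference in how reads aligned to the segments cannot be told apart. None of these was tested.

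**Figure D1:**
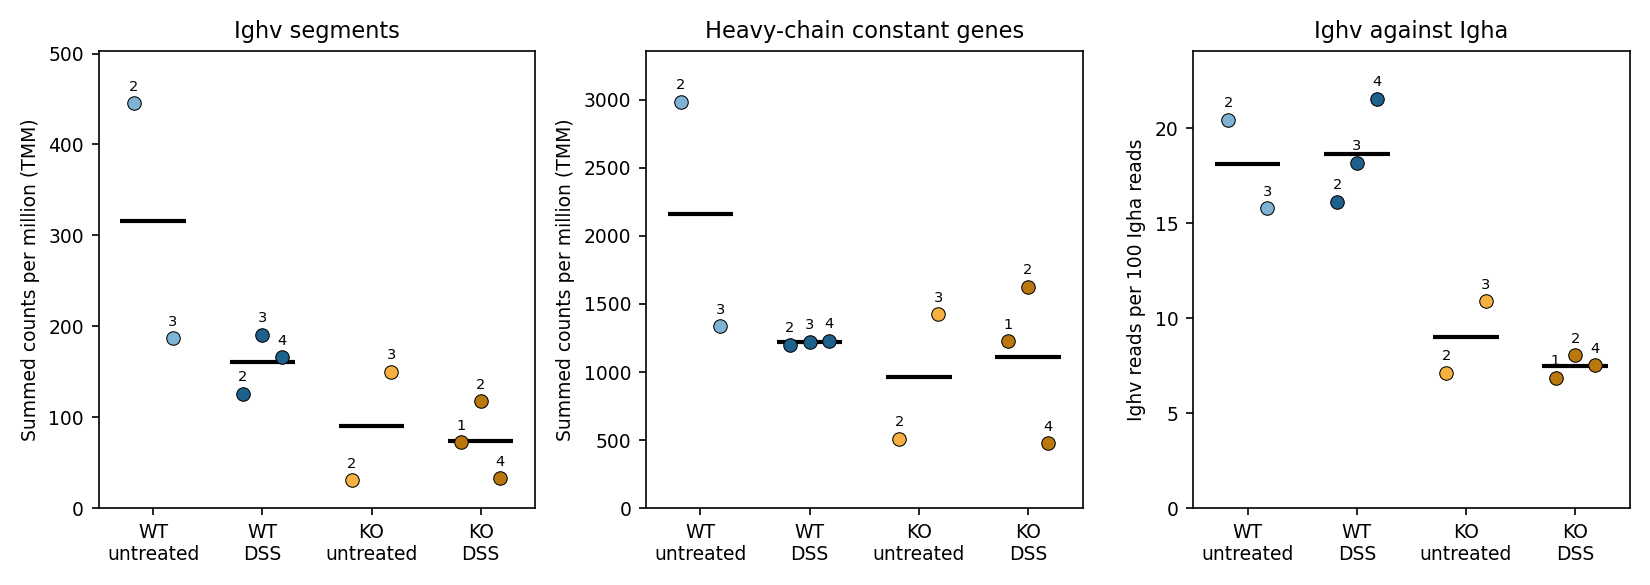
Summed CPM of the 129 Ighv segments (left), summed CPM of the 8 heavy-chain constant genes (middle) and Ighv reads per 100 Igha reads (right), with each dot a library labelled by its column number and each bar the group mean (n = 2, 3, 2 and 3). KO libraries lie between 6.87 and 10.9 Ighv reads per 100 Igha reads and WT libraries between 15.8 and 21.6, while the constant genes overlap between the genotypes. Per 100 reads of all 8 constant genes (not drawn) the genotypes overlap, at 10.5 to 15.6 in WT and 5.91 to 10.6 in KO.

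The 8 heavy-chain constant genes encode the part of the chain that sets the antibody class. Their summed level was 1201, 1224 and 1228 CPM in DSS-treated WT libraries and 1227, 1625 and 477 CPM in DSS-treated KO libraries, which overlapped. Igha, the constant gene of IgA, did not pass the test between the DSS-treated genotypes (log2 fold change 0.18, SE 0.49, edgeR quasi-likelihood test with Benjamini-Hochberg adjustment, adjusted p = 0.80), nor did it between the untreated ones (-0.89, SE 0.60, adjusted p = 0.38). A miss of the threshold does not show that the levels were alike. Set against Igha within the same library, which needs no scaling between libraries, Ighv reads numbered 20.4 and 15.8 per 100 Igha reads in untreated WT and 16.1, 18.2 and 21.6 in DSS-treated WT. In KO they numbered 7.13 and 10.9 untreated, and 6.87, 8.05 and 7.53 after DSS. All 5 KO libraries lay below all 5 WT libraries on this ratio, and with Ighv8-8 left out they still did, at 6.27 to 9.57 against 13.1 to 17.8. Against all 8 constant genes together the ratio was 10.5 to 15.6 in WT and 5.91 to 10.6 in KO, so that untreated KO library 3 just overlapped DSS-treated WT library 2. Igha made up 62.7% to 88.7% of the reads of the 8 constant genes in WT and 84.7% to 97.0% in KO. The separation on the Igha ratio thus holds for that base only, and the part of this shift in it was not tested.

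Kappa variable segments and heavy-chain D and J segments were set against their constant genes in the same way. Igkv reads per 100 reads of Igkc, the kappa constant gene, were 45.4 to 57.8 in WT and 30.1 to 45.9 in KO, and D and J segment reads per 100 Igha reads were 1.95 to 2.42 in WT and 0.809 to 1.56 in KO. Per 100 reads of all heavy-chain constant genes, D and J segment reads overlapped, at 1.34 to 1.78 in WT and 0.740 to 1.51 in KO. Ighv reads per 100 Igkv reads overlapped between the genotypes, at 47.2 to 58.1 in WT and 42.4 to 58.2 in KO. A constant gene that moved with genotype was Ighg2c, an IgG2 gene of the C57BL/6 haplotype, in place of which other inbred strains carry Ighg2a. It took 5.06% to 22.0% of the constant-gene reads in WT libraries and 0.145% to 1.29% in KO libraries, with log2 fold changes of -4.90 (SE 0.99, adjusted p = 0.0068) under DSS and -4.88 (SE 1.21, adjusted p = 0.035) without it. Ighg2b, another IgG2 gene, was also lower in KO without overlap, at 36.1 to 151 CPM in WT and 1.77 to 29.0 CPM in KO. It was not called in either genotype comparison. Reads were aligned to mm10, which is a C57BL/6 genome. Whether the 2 mouse lines carry the same heavy-chain haplotype, and whether the lower Ighv counts in KO depended on alignment to this reference, was not tested.

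Ighv8-8 was the most used segment in WT colon. Expressed as a share of all Ighv reads of the library, it took 30.3% and 13.1% in untreated WT libraries 2 and 3, and 16.4%, 28.1% and 17.3% in DSS-treated WT libraries 2, 3 and 4. It took 12.0% and 12.1% in untreated KO libraries 2 and 3, and 7.49%, 6.21% and 1.28% in DSS-treated KO libraries 1, 2 and 4. All KO shares lay below all WT shares. The segment ranked first in all 5 WT and both untreated KO libraries and in none of the DSS-treated KO libraries. The gap between the genotypes was narrow without DSS: the exact (Clopper-Pearson) 95% interval of the share was 12.4% to 13.7% in untreated WT library 3, against 11.5% to 12.7% in untreated KO library 3 and 10.5% to 13.8% in untreated KO library 2, so that these intervals overlapped. Under DSS the closest intervals were 15.6% to 17.3% in WT library 2 and 6.77% to 8.25% in KO library 1. Such intervals cover counting error only, since the reads carry no molecular identifiers.

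In DSS-treated KO colon other segments led. Ighv2-9 took 13.7% and 16.0% of Ighv reads in libraries 1 and 2, but 0.256% in library 4, where Ighv1-42 led with 9.52%. In untreated KO colon Ighv2-9 took 5.67% in library 2 and 0.00952% (1 read) in library 3, and in WT it never passed 1.01%. The high values thus stood in 3 of 5 KO libraries, and the groups overlapped. Its level in DSS-treated KO against DSS-treated WT gave a log2 fold change of 3.26 (SE 1.50) that did not pass the edgeR test (adjusted p = 0.13). Ighv1-42 was at 0.257% to 1.18% in the 9 libraries other than DSS-treated KO library 4.

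Averaged over the 10 libraries with equal weight, the 10 most used segments were Ighv8-8 (14.4%), Ighv1-9 (4.61%), Ighv3-6 (3.92%), Ighv2-9 (3.86%), Ighv1-26 (3.64%), Ighv9-2 (3.51%), Ighv1-82 (3.02%), Ighv1-54 (2.86%), Ighv1-64 (2.77%) and Ighv1-55 (2.66%). Together they held 45.3% of the Ighv reads, and 28 of 129 segments had a mean share of at least 1%. Some of these had 1 library far above the others. Ighv9-2 reached 16.9% in DSS-treated WT library 4 against 0% to 4.65% elsewhere, its 0 reads in untreated KO library 2 allowing a share of up to 0.193% there. Ighv1-82 reached 10.9% in untreated KO library 3 against 1.60% to 3.19% elsewhere. Ighv3-6, by contrast, stayed between 2.32% and 5.80% in all 10 libraries, and Ighv1-54 between 1.53% and 5.83%.

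**Figure D2:**
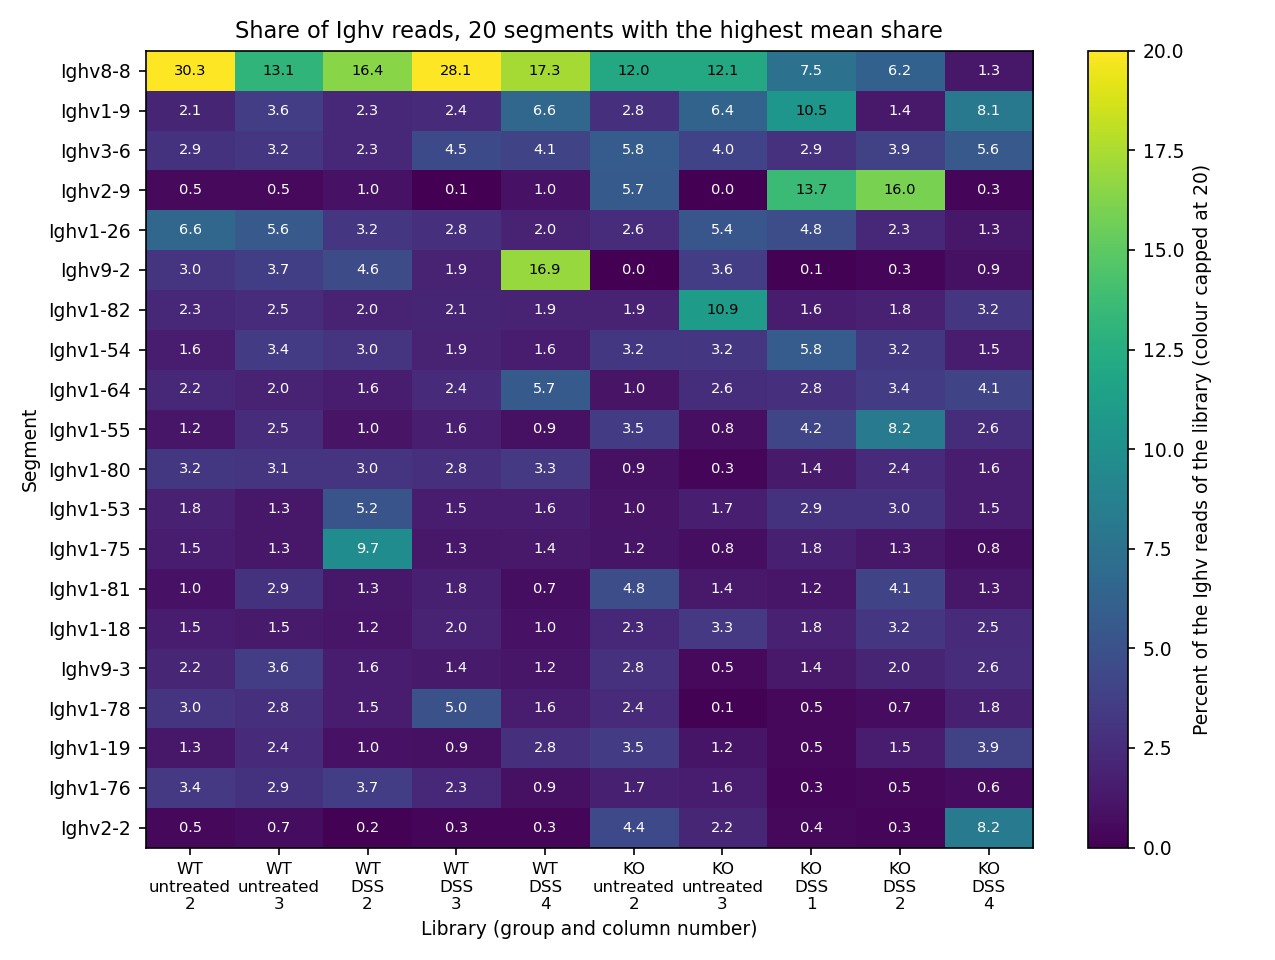
Share of Ighv reads (percent, printed in each cell) of the 20 segments with the highest mean share (rows) in each library (columns, grouped by genotype and treatment), with the colour scale capped at 20%. Ighv8-8 is at 12.0% or more in 7 libraries and falls to 1.28% in DSS-treated KO library 4, and Ighv9-2 (16.9%), Ighv1-82 (10.9%) and Ighv1-75 (9.71%) each have 1 high cell.

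A share of at least 5% in some library was reached by 17 segments, of which 12 reached it in 1 library only. Besides those above, these included Ighv1-75 (9.71%) and Ighv1-50 (6.15%) in DSS-treated WT library 2, Ighv1-55 (8.16%) in DSS-treated KO library 2, and Ighv2-2 (8.24%), Ighv6-6 (5.94%) and Ighv6-3 (5.24%) in DSS-treated KO library 4. As a check for a library deposited more than once, the chi-square statistic per segment for pairs of libraries within a group was 29.1 to 51.7, where counting error alone would give about 1, so no pair was counted as a single sample.

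The evenness of usage was summarised by the effective number of segments (inverse Simpson index), the number of equally used segments that would give the same concentration of reads. It was 9.40 and 27.7 in untreated WT and 18.2, 10.6 and 13.6 in DSS-treated WT. Among KO libraries it was 26.2 and 21.3 without DSS and 19.8, 19.8 and 24.1 with it. The medians were 13.6 over WT and 21.3 over KO libraries, but untreated WT library 3 exceeded every KO library, so the genotypes overlapped. With Ighv8-8 left out, the effective number was 15.6 to 39.7 in WT and 18.9 to 32.8 in KO. At the lowest Ighv total of 1553 reads, 83.7 to 87.7 segments were expected with a read in WT and 80.0 to 89.0 in KO. The ranges overlapped at this equal depth.

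Usage by family, the number before the first hyphen in the symbol, separated the genotypes in 2 of 15 families. Shares of Ighv reads exist only for the members, so no share over all genes can be set beside this count. How often such a separation arises by chance was not tested. The Ighv1 family, the largest with 70 segments, held 47.0% to 63.7% of Ighv reads in WT and 46.5% to 57.7% in KO. The Ighv8 family (11 segments) held 15.0% to 31.5% in WT and 2.36% to 13.4% in KO without overlap, most of it from Ighv8-8. The Ighv2 family (9 segments) went the other way, at 1.73% to 2.70% in WT and 6.37% to 19.4% in KO, again without overlap.

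The Ighv2 family owed its high KO share to different segments in different libraries. In untreated KO library 2 it was led by Ighv2-9 (5.67%) and Ighv2-2 (4.38%), in untreated KO library 3 by Ighv2-5 (3.35%) and Ighv2-2 (2.16%), in DSS-treated KO libraries 1 and 2 by Ighv2-9, and in DSS-treated KO library 4 by Ighv2-2 (8.24%). Ighv2-2 and Ighv2-5 differ at 9 of 304 bases of the V exon, and Ighv2-9 belongs to another cluster of close copies with Ighv2-3, Ighv2-6 and Ighv2-6-8. Single segments seldom separated the genotypes by share: only Ighv8-8 and Ighv1-80 of the 129 did so, both lower in KO, Ighv1-80 at 2.81% to 3.32% in WT and 0.324% to 2.44% in KO. The closest Ighv1-80 shares, in DSS-treated WT library 3 (95% interval 2.53% to 3.11%) and DSS-treated KO library 2 (2.09% to 2.83%), had overlapping intervals.

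**Figure D3:**
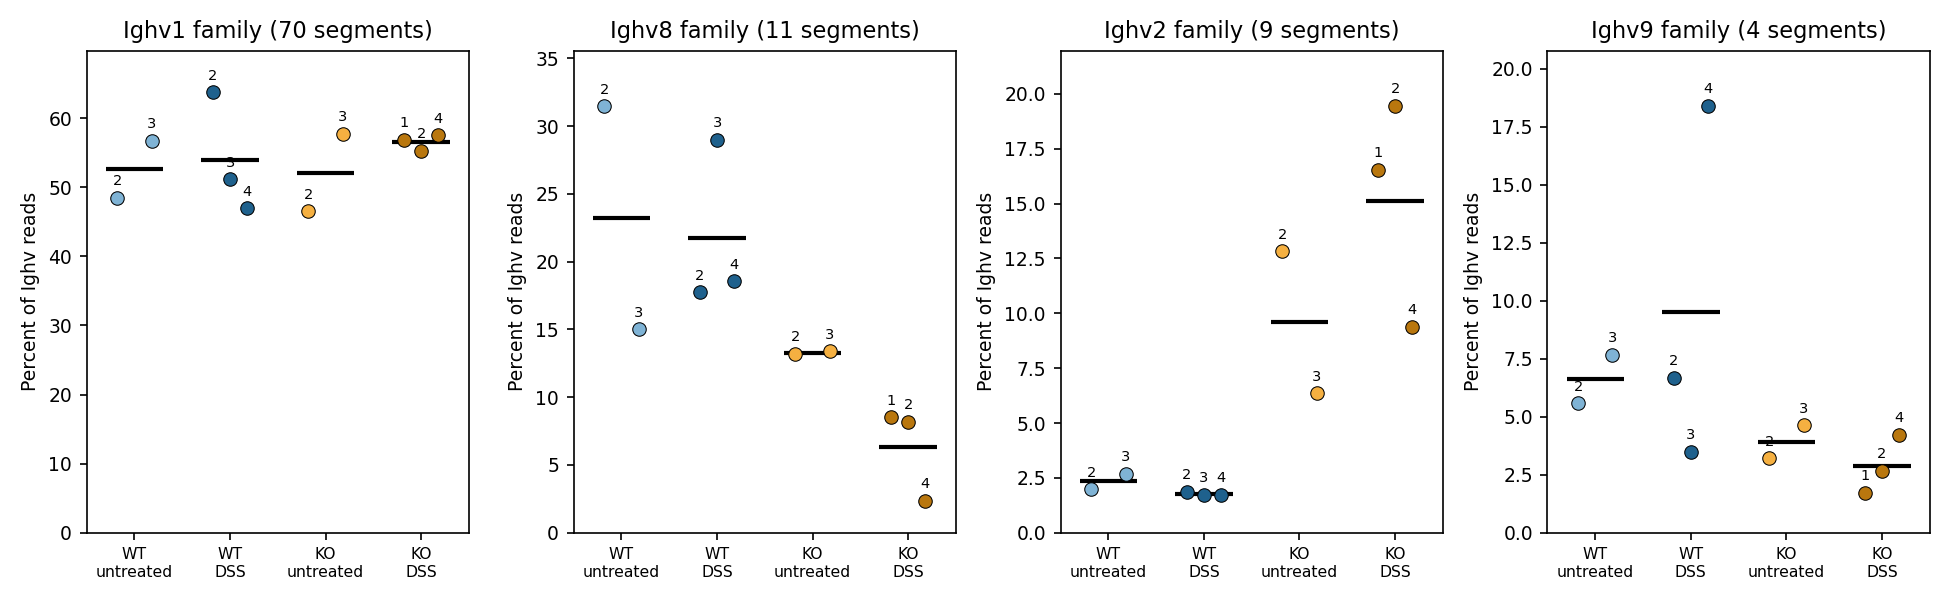
Percent of Ighv reads in the Ighv1, Ighv8, Ighv2 and Ighv9 families, with each dot a library labelled by its column number and each bar the group mean (n = 2, 3, 2 and 3). The Ighv2 family is at 6.37% to 19.4% in KO and at most 2.70% in WT, the Ighv8 family is at most 13.4% in KO and at least 15.0% in WT, and the other pair of families overlap.

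Along the locus, the segments were divided by order into 3 equal sets of 43. The set farthest from the constant region genes, which includes Ighv8-8 and much of the Ighv1 family, held 46.1% to 65.4% of Ighv reads in WT and 28.7% to 47.9% in KO. The set nearest the constant genes, which includes the Ighv2 family, held 16.5% to 32.4% in WT and 27.3% to 35.0% in KO. Both ranges overlapped between the genotypes. As a description, dissimilarity of usage between pairs of libraries (Bray-Curtis, 0 for identical and 1 for disjoint usage) had a median of 0.307 among WT libraries, 0.438 among KO libraries and 0.448 between the genotypes. WT libraries ranged from 0.181 to 0.335, and KO libraries from 0.329 to 0.542.

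**Figure D4:**
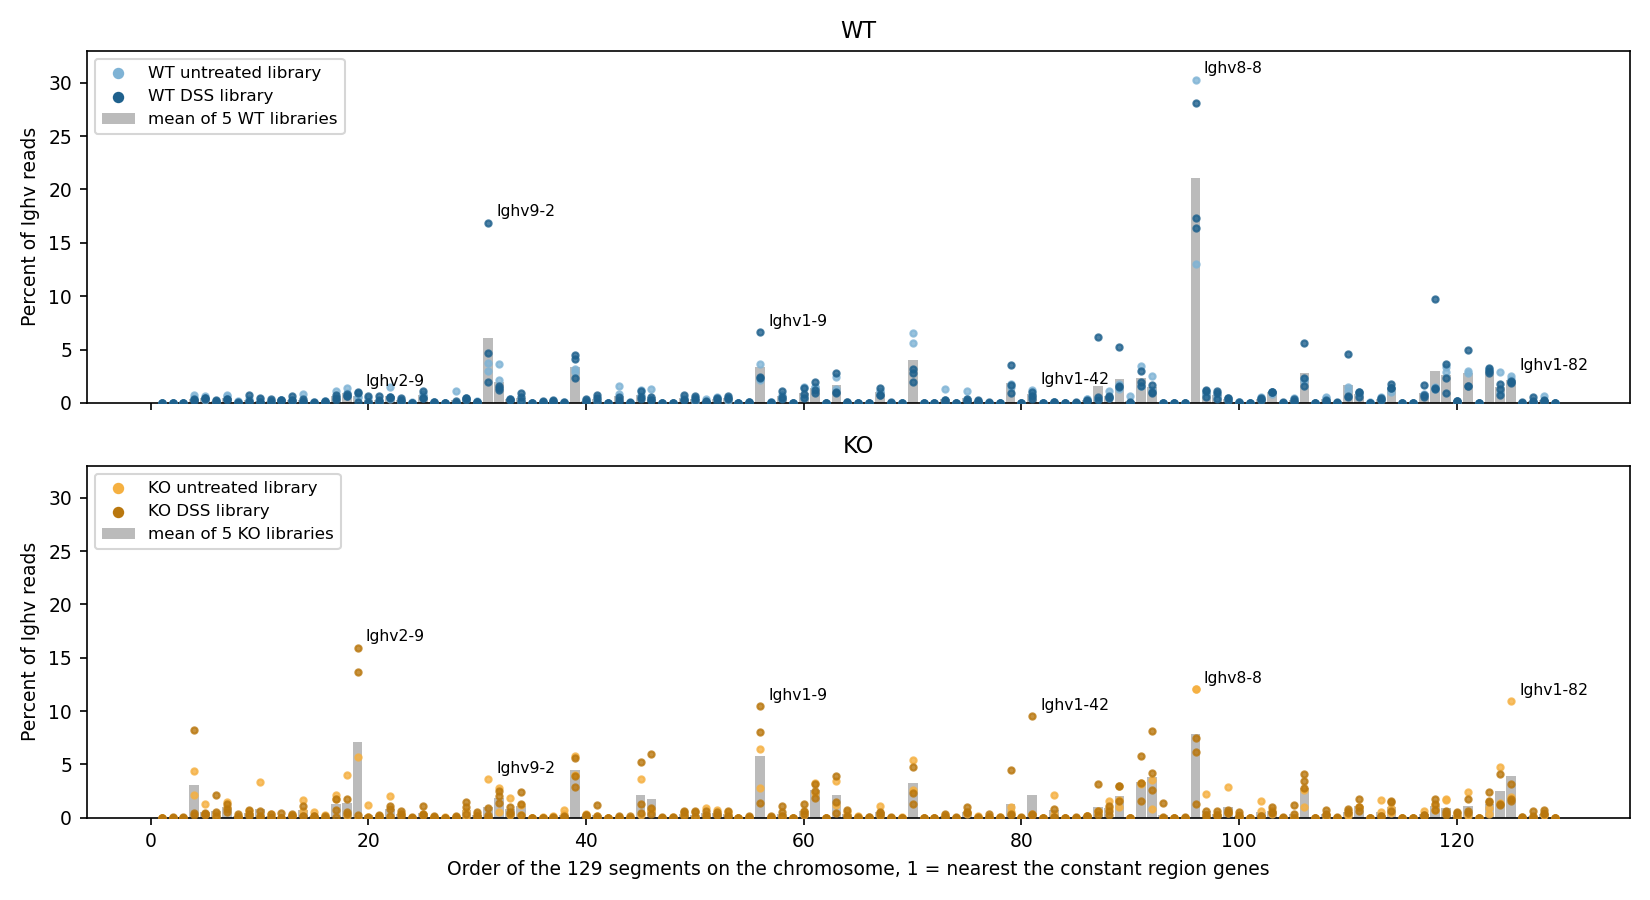
Percent of Ighv reads (vertical axis) of the 129 segments in their order on the chromosome, 1 being nearest the constant region genes, for 5 WT libraries (top) and 5 KO libraries (bottom), with dots for libraries and bars for the mean. In WT the tallest bar is Ighv8-8, with 13.1% to 30.3%, and in KO no segment exceeds 16.0%.

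Tested one by one, DSS-treated KO against DSS-treated WT colon gave 14 called segments among 89, all lower in KO (edgeR quasi-likelihood test, adjusted p under 0.05). Of all 20472 genes tested, 14.9% were called lower in this comparison, so the 15.7% of segments called lower is close to the background and is not a result about the segments. The median log2 fold change of the 89 segments was -0.98, against -0.04 over all genes tested. All KO libraries were below all WT libraries for 24 segments (27.0%, against 22.4% of all genes) and above them for none. At an unadjusted p under 0.05, 24 segments were lower and 0 higher. The count of calls fell to 6 without DSS-treated WT library 3, to 7 without WT library 4, and to 9 without WT library 2 or KO library 1, and DESeq2 called 23. Without DSS-treated KO library 4, which had 1565 Ighv reads, 2 segments were called higher in KO and 8 lower. The unadjusted, leave-one-out and DESeq2 counts have no share over all genes beside them, so they are not read as results about the segments.

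Ighv8-8 was at 20.7, 53.6 and 28.8 CPM in DSS-treated WT libraries 2, 3 and 4 and at 5.43, 7.28 and 0.421 CPM in DSS-treated KO libraries 1, 2 and 4. The groups did not overlap, and the level was lower in KO (log2 fold change -2.95, SE 0.94, adjusted p = 0.041). This call was lost in 7 of 18 alternatives, over which the adjusted p ran from 0.022 to 0.12. Ighv9-2 was at 5.85, 3.70 and 28.1 CPM in WT and at 0.0871, 0.301 and 0.294 CPM in KO (-5.81, SE 1.45, edgeR adjusted p = 0.016). Here too each KO library was below each WT library, and each KO library had at most 18 reads. In untreated colon Ighv9-2 did not pass the test (adjusted p = 0.43), with 13.3 and 7.02 CPM in WT and 0 and 5.43 CPM in KO.

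Ighv1-74, Ighv1-76 and Ighv1-78 lie in the set of segments farthest from the constant genes. Ighv1-76 was at 4.61, 4.45 and 1.50 CPM in DSS-treated WT and at 0.189, 0.536 and 0.210 CPM in DSS-treated KO (log2 fold change -3.48, SE 0.74, adjusted p = 0.0082), and it kept its call in all 18 alternatives. Its near-identical copy Ighv1-77 had 11, 17 and 26 reads in DSS-treated WT libraries 2, 3 and 4, where Ighv1-76 had 291, 296 and 109. In DSS-treated KO libraries 1, 2 and 4 Ighv1-77 had 25, 32 and 0 reads and Ighv1-76 had 13, 32 and 10. The Ighv1-76 call therefore cannot be assigned to a given copy with certainty. Ighv1-78 was at 1.95, 9.50 and 2.58 CPM in WT and 0.334, 0.787 and 0.589 CPM in KO (-3.04, SE 0.73, adjusted p = 0.014). Ighv1-74 was at 0.698, 3.17 and 1.17 CPM in WT and 0.189, 0.352 and 0.0631 CPM in KO (-3.02, SE 0.70, adjusted p = 0.012). None of these 3 overlapped between the groups. Ighv1-22 (1.74, 1.44 and 1.19 CPM in WT, 0.319, 0.670 and 0.0841 CPM in KO, adjusted p = 0.029) and Ighv1-80 (-1.72, adjusted p = 0.044) were also called, and lost the call in 5 of 17 and 10 of 18 alternatives, with adjusted p from 0.0025 to 0.071 and from 0.0046 to 0.12. Among the other called segments, named after their values were seen, the log2 fold change ran from -1.29 for Ighv1-52 to -3.99 for Ighv13-2. Because Ighv1-62-2 was called with 2 to 12 reads per DSS-treated KO library and its identical copy Ighv1-71 was not, that call cannot be assigned to the copy.

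Without DSS, 9 of 89 segments were called, all lower in KO (10.1%, against 5.97% of all genes called lower). The median log2 fold change of the segments was -1.87, against 0.01 over all genes. Both KO libraries were below both WT libraries for 57 segments (64.0%, against 32.1% of all genes) and above them for 2. The unadjusted, leave-one-out and DESeq2 counts that follow have no share over all genes beside them and are not read as results about the segments. At an unadjusted p under 0.05, 36 segments were lower and 2 higher. With 2 libraries a group these calls rest on few values: without untreated KO library 2 no segment was called, and without untreated WT library 2 or untreated KO library 3 the count was 3. DESeq2 called 25.

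Ighv9-3 was at 9.69 and 6.75 CPM in untreated WT and at 0.870 and 0.758 CPM in untreated KO (log2 fold change -3.34, SE 0.49, adjusted p = 0.0060). Ighv1-80 was at 14.3 and 5.78 CPM in WT and at 0.277 and 0.486 CPM in KO (-4.69, SE 0.79, adjusted p = 0.0089). Neither overlapped between the genotypes. Ighv1-78 (-4.34), Ighv1-22 (-3.49) and Ighv1-74 (-3.29) were also called, with adjusted p from 0.020 to 0.040. Ighv8-8, at 135 and 24.4 CPM in WT and 3.70 and 18.2 CPM in KO, was lower in both KO libraries but not called (-2.85, SE 1.13, adjusted p = 0.14).

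The 2 genotype comparisons share no library, though they share the estimate of spread. Called lower in both were 5 segments, which made up 5 of 14 under DSS and 5 of 9 without it (5 of 89 tested, against 1.16% of all genes called lower in both): Ighv1-22, Ighv1-74, Ighv1-78, Ighv1-80 and Ighv13-2. Ighv13-2, the only member of its family in the table and named here after its values were seen, had 237 and 182 reads in untreated WT, 6, 31 and 64 in DSS-treated WT, and 0 to 3 reads in each KO library. Its closest annotated segment shared 80.3% of its bases, so it has no near-identical copy. By contrast, Ighv1-22, Ighv1-74 and Ighv1-80 have near-identical members. Among these, Ighv1-18, Ighv1-69 and Ighv1-82 respectively were called in neither comparison, and Ighv1-59, a copy of Ighv1-74, was called lower under DSS only. The calls of Ighv1-22, Ighv1-74 and Ighv1-80 therefore cannot be assigned to a given copy with certainty. Across both treatments together, all 5 KO libraries were below all 5 WT libraries for 14 segments (15.7% of the 89, against 3.14% of all genes tested). These included Ighv8-8, Ighv1-22, Ighv1-74, Ighv1-78 and Ighv1-80.

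**Figure D5:**
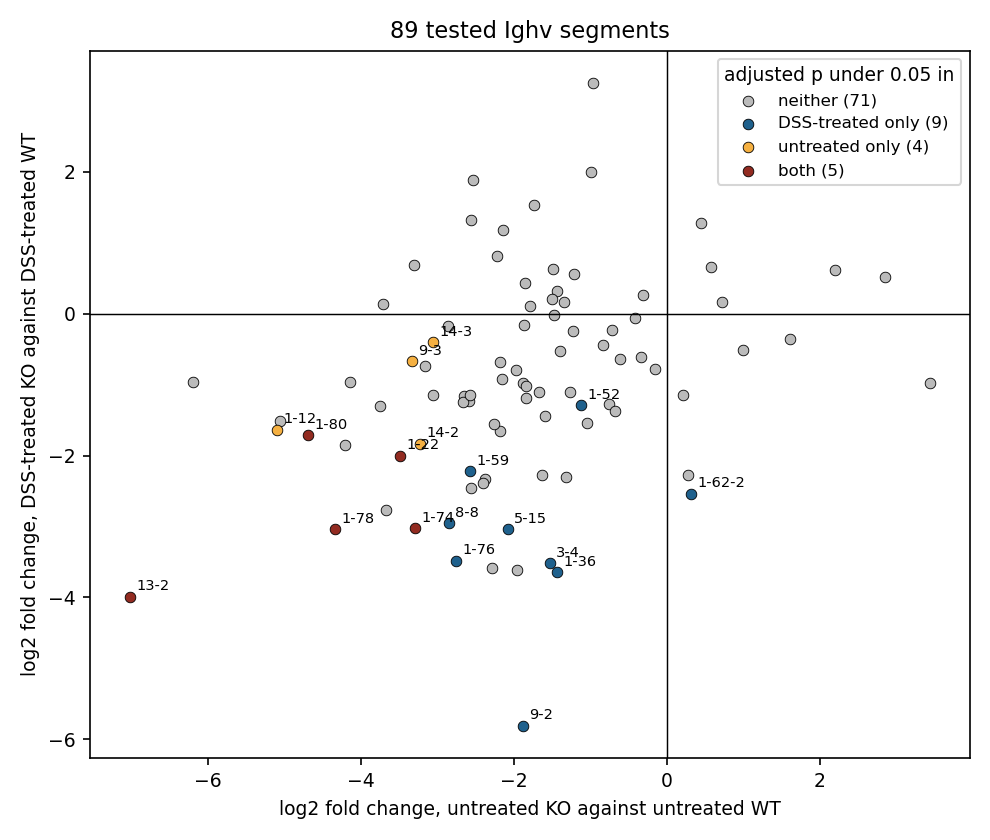
Log2 fold change of the 89 tested segments, KO against WT, in untreated colon (horizontal axis) and DSS-treated colon (vertical axis), coloured by the comparison in which the edgeR adjusted p was under 0.05, with called segments named without the prefix Ighv. The 5 segments called in both lie at the lower left, and Ighv9-2 has the lowest DSS value (-5.81).

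In WT colon no segment changed with DSS by the edgeR test. No segment was called between DSS-treated and untreated WT (smallest adjusted p = 0.39), where 0.0244% of all genes were called in either direction. At an unadjusted p under 0.05, 12 segments were lower and 0 higher, and DESeq2 called 2, both lower, again without a share over all genes beside them. All DSS-treated WT libraries were below both untreated ones for 30 segments (33.7%, against 13.2% of all genes), with a median log2 fold change of -1.04 over the 89. Untreated WT library 2, the library with the most Ighv reads, also had the highest heavy-chain constant level (2986 CPM).

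In KO colon the number and direction of the segments called with DSS depended on single libraries. Of 89 segments, 3 were higher (23.1% of all genes were) and 6 lower (22.3% of all genes were), that is 3.37% and 6.74% of the segments, below the shares over all genes. Without untreated KO library 2 the calls were 0 higher and 10 lower, without untreated KO library 3 they were 2 higher and 0 lower, and without DSS-treated KO library 4 they were 8 higher and 4 lower. The count was 5 without DSS-treated KO library 1 or 2. With only the 2 groups compared in the fit, 0 were higher and 2 lower. No share over all genes stands beside these alternative counts. The calls of the near-identical copies Ighv1-80 and Ighv1-82, and that of Ighv1-76 with its copy Ighv1-77, cannot be assigned to a given copy with certainty. Ighv1-80 was higher after DSS, from 0.277 and 0.486 CPM to 1.05, 2.86 and 0.526 CPM (log2 fold change 1.93, SE 0.71, edgeR adjusted p = 0.048), a call lost in 10 of 18 alternatives (adjusted p from 0.0058 to 0.22). Ighv1-76 was lower (-2.27, SE 0.77, adjusted p = 0.037), from 0.534 and 2.46 CPM to 0.189, 0.536 and 0.210 CPM with overlap, a call lost in 6 of 18 (adjusted p from 0.0037 to 0.54). Ighv1-82 was also called lower (-2.57, SE 0.93, adjusted p = 0.046, from 0.0016 to 0.48 over its alternatives), but its untreated KO libraries were at 0.593 and 16.4 CPM, and without library 3 the change turned to 1.28.

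The DSS response differed between the genotypes for 4 segments, all with the higher response in KO (4.49% of the 89, against 13.8% of all genes). The count was 1 without untreated WT library 2 or DSS-treated WT library 2 or 4, and 2 without DSS-treated KO library 2. Without untreated KO library 2, 5 were called, 1 with the higher and 4 with the lower response in KO. The counts with a library left out have no share over all genes beside them. Ighv9-3 and Ighv1-80 are named by rule. Ighv9-3 went from 9.69 and 6.75 CPM to 1.98, 2.73 and 2.05 CPM with DSS in WT, and from 0.870 and 0.758 CPM to 1.02, 2.39 and 0.841 CPM in KO (interaction 2.67, SE 0.60, adjusted p = 0.012). For Ighv1-80 the interaction was 2.97 (SE 0.92, adjusted p = 0.039). The call for Ighv1-80 was lost in 8 of 17 alternatives (adjusted p from 0.0024 to 0.15). Neither segment passed the test between DSS-treated and untreated WT. Because Ighv1-82 is a near-identical copy of Ighv1-80, the Ighv1-80 interaction cannot be assigned to a given copy with certainty.

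The other genes of the B lineage gave mixed counts. Of 90 tested Igkv segments, 22 were lower and 0 higher in DSS-treated KO (24.4% lower, against 14.9% of all genes, median log2 fold change -1.14), and 15 were lower and 0 higher in untreated KO (16.7% lower, against 5.97% of all genes, median -1.80). Igkv segments encode the variable part of kappa light chains. Of 7 tested heavy-chain constant genes, Ighg1 was higher (1.68, SE 0.56, adjusted p = 0.048) and Ighg2c lower under DSS, and Ighg2c and Ighg3 were lower without it. None of the 4 tested light-chain constant genes and none of the 4 tested D and J segments was called in either genotype comparison.

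Markers of B cells, the cells that display immunoglobulin on their surface, were not called in either genotype comparison (0 of 16). Their summed level was 131.6 CPM at the lowest, in untreated KO library 3, and 506 CPM at the highest, in DSS-treated KO library 2, and KO and WT overlapped within each treatment. Plasma cell markers were higher for 3 of 15 genes under DSS (Sdc1, Fkbp11 and Cd38, 20% against 14.9% of all genes) and for 1 without it (Sdc1), and 5 were lower without DSS (33.3% against 5.97% of all genes), among them Prdm1 and Irf4, transcription factors of plasma cell formation. Several of these genes are also made by epithelium or other cells. The summed plasma cell markers were at 1672 to 1839 CPM in DSS-treated WT and 2018 to 2721 CPM in DSS-treated KO, and at 1562 to 1968 CPM in untreated WT and 1125 to 1306 CPM in untreated KO. Without Cd38 and Xbp1, a choice made after seeing the data, the sums under DSS overlapped, at 880 to 1031 CPM in WT and 836 to 1072 CPM in KO. The part of these levels in the Ighv results was not tested. Jchain, which links IgA into dimers, was at 219 to 301 CPM in DSS-treated WT and 156 to 357 CPM in DSS-treated KO, and did not pass the test (0.13, SE 0.41, adjusted p = 0.84).

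Lists for the steps around V segment use and the other cell types of the colon were counted in the comparison of DSS-treated genotypes, in which 14.9% of all genes were called higher and 14.9% lower. Of 8 tested V(D)J recombination genes, Prkdc and Dclre1c, which act in DNA end joining, were lower. Of 12 genes for germinal centres and class switching, Mki67 and Ung were higher (16.7%, near the share of all genes). Of 15 tested genes for IgA induction and transport, Il6 was higher and Il21, Ccr9 and Aldh1a1 were lower. Against the share of all genes, 1 to 3 calls in lists of this length are not results about the lists. None of 8 tested follicle and naive lymphocyte genes was called. Of the 10 T cell markers 7 were lower, and all 8 smooth muscle markers were lower. Without DSS, where 5.97% of all genes were lower and 3.87% higher, all 10 T cell markers were lower in KO while 5 smooth muscle markers were higher.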

How the data were processed

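The sources state that colon mRNA was sequenced from stranded libraries and that the authors made one table of gene read counts with mean, fold change and p columns beside them. Tools listed by the submitters' processing notes are StringTie 2.1.3b, HISAT2 2.1.0, Trimmomatic 0.38 and Bowtie2 2.3.4.1, with mm10 as the build. How reads fitting several genes were counted, and whether strand was used in counting, was not given in the sources used here. Deposited raw counts of 10 libraries were used. Column names matched a group but not a sample title, so columns were mapped to groups only. The 30 other per-library columns and 12 columns of the authors' means and comparisons were not used. Titles number separate colons, but which colon a library came from is not known, and p-values measure the spread between these libraries.

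Counts were scaled by TMM and fitted over the whole table in edgeR 4.0.16 (limma 3.58.1, R 4.3.3) with the quasi-likelihood test on all 4 groups, after a filter on low counts that left 20472 genes. Benjamini-Hochberg adjustment ran over all of them at 0.05, and the fit was tested on simulated data. DESeq2 1.42.0 was an alternative, as were another scaling, other filters, the study's screen (p under 0.01 and fold over 3), summed near-identical copies and leaving out each library. V exons from GENCODE M21 were aligned with Biopython 1.88 in Python 3.11.15. Intervals (scipy 1.17.1) and floors of 3 counts cover counting error only.

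Segments were named if they were among the 10 most used, led a library, or were among the 5 largest called rises or falls of a comparison at a mean log2 CPM of at least 0, together with their close copies. The members and the lists were chosen with earlier results of these data known.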

Additional observations from a re-analysis of the deposited data

Results flagged for a closer look

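For 4 Ighv segments the DSS response differed between the genotypes by the edgeR interaction test with Benjamini-Hochberg adjustment, and in each the response in KO colon was the higher one. These were 4.49% of the 89 tested, against 13.8% of all genes. The count was 1 without untreated WT library 2 or DSS-treated WT library 2 or 4, 2 without DSS-treated KO library 2, and 1 higher with 4 lower without untreated KO library 2. The counts with a library left out have no share over all genes beside them. The log2 difference in response was 2.67 for Ighv9-3 (adjusted p = 0.012) and 2.97 for Ighv1-80 (adjusted p = 0.039). It was 2.65 for Ighv14-3 (adjusted p = 0.039) and 4.43 for Ighv1-62 (adjusted p = 0.046), both named after their values were seen. Ighv1-62 had 3 to 15 reads in WT libraries and 1 and 4 in untreated KO libraries. In DSS-treated KO libraries 1, 2 and 4 it had 7, 39 and 4 reads, so its value rests on few reads and largely on library 2. Its near-identical copy Ighv1-55 had 572 reads in that library. Ighv14-3 and Ighv1-80 also have near-identical members. No group had enough libraries to look for a single library far from the others by Dixon's rule.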

How the results depend on the processing

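The alternative counts in this paragraph have no share over all genes beside them. In DSS-treated KO against WT colon 14 segments were called. The count was 6 with at least 10 counts in every library, 8 with the study's screen, 23 with DESeq2 and 8 of 54 with near-identical copies summed, and 6 to 15 when 1 library was left out. In untreated colon 9 were called, against 3 with the stricter filter, 17 with only the groups compared, 25 with DESeq2, 4 with copies summed and 0 to 13 when 1 library was left out. Between DSS-treated and untreated WT the count was 0, against 2 with the study's screen and 2 with DESeq2, and 0 to 0 when 1 library was left out. In KO colon 9 changed with DSS, against 4 with the stricter filter, 2 with the study's screen, 2 with only the groups compared, 14 with DESeq2, 5 with copies summed and 2 to 12 when 1 library was left out. For the interaction the count was 4, against 7 with DESeq2, 1 with copies summed and 1 to 6 when 1 library was left out. With the library number as a replicate block, the counts were 5 (1 higher and 4 lower), 9, 0, 4 (all higher, against 3 higher and 6 lower) and 5 in the same order. Where leaving out a library left a group with 1, its spread was taken from the other groups. Whether the numbers pair the libraries is not known. Correlations of same-numbered deviations ran from -0.14 to 0.16, and such values cannot exclude that libraries of the same number shared a batch. The log2 ratio of summed Ighv levels ran from -1.61 to -0.76 under DSS and from -3.37 to -1.05 without it when 1 library was left out. The median effective number of segments over KO libraries was 21.3, and 15.3 with copies summed. Ighv1-82 reversed without untreated KO library 3. When 1 library was left out, its log2 fold change ran from -3.63 (adjusted p = 0.047) to 1.16 in untreated KO against WT and from -3.51 to 1.28 (adjusted p = 0.15) in KO with DSS. Of the other alternatives for named segments, 1382 kept side and direction, 78 lost the call and 26 gained it. The cause of these changes was not tested. Libraries with 1553 and 1565 Ighv reads limit what can be seen of rare segments.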
